A study of Mus musculus with 6 samples.

Results

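The Pramel and Oog genes are a mouse family of oocyte and germ cell genes, some of which are close copies of each other. Members were the rows of either count table with a gene symbol beginning in Pramel or Pramef and a number, the symbol Prame, or a symbol beginning in Oog and a number. The rule found 31 of 14165 rows in the table of pooled oocytes and 18 of 54658 rows in the table of single oocytes. The single-oocyte table listed 22 more of these genes under older symbols, found through RefSeq synonyms, among them Gm13103 for Pramel27 and Gm10436 for Pramel51, so that 40 genes had a row in at least 1 table and all 31 genes of the pools had one in both. Of the 52 genes of the family that RefSeq lists, 13 had a row in neither table and were not analysed here.

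All libraries were made from the polyadenylated RNA of mouse oocytes in metaphase II (MII), when the egg waits for fertilisation, with Smart-seq2, which copies RNA into full-length cDNA and amplifies it by PCR. Of the 4 pools, 2 came from young oocytes given short interfering RNA against Plat (siPlat) and 2 from young oocytes given control short interfering RNA (siCtrl), with 10 oocytes in each. The single oocytes, listed with no treatment, were 59 from aged mice and 35 from young mice, 1 library for each oocyte, and each age was 1 sample. Strain, ages in months and the animals behind a library were not given in the labels, so the spread between the replicates of pools may be technical, and p-values measure only that spread. Plat, the gene of the secreted protease tissue-type plasminogen activator, was at 51.4 and 39.0 CPM (counts scaled to the library total) in the siPlat pools against 441 and 439 CPM in the siCtrl pools (log2 fold change -3.28, SE 0.19, edgeR adjusted p = 6.21e-06).

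PRAME family proteins are built of leucine-rich repeats, and several are described as substrate receptors of the cullin 2 ubiquitin ligase, which marks chosen proteins for degradation. In mouse embryonic stem cells Pramel7 is known to direct the loss of Uhrf1, a protein that brings the maintenance DNA methyltransferase Dnmt1 to replicated DNA. The Oog genes, or oogenesins, are named for their expression in growing oocytes, and most of the rodent genes lie in tandem arrays that grew by duplication.

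The 40 genes formed 7 groups on the genome with gaps under 1000000 bases (GRCm38, the assembly that mm10 names). The largest held 24 genes at chr4:143394441-144408467, among them Oog2, Oog3 and Oog4. A group of 7 genes lay at chr5:93635182-95736173, Oog1 and Pramel51 lay at chr12:87602665-88181894, and Pramel32 stood alone at chr4:88627320-88634186. Pramel17 with Pramel19, Pramel6 with Pramel7, and Pramel3 with Prame made up the rest. Among 39 genes with an open reading frame in GENCODE transcripts, 741 pairs were compared and shared between 49.9% and 99.3% of their bases (median 58.8%).

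How far a copy can take the reads of another differed from gene to gene. Of the 39 genes, 27 had more than 10% of their 75-base windows in a transcript of another gene and 12 had more than 50%, whereas 9, among them Pramel23, Pramel32, Oog4 and Pramel13, shared no such window. Oog1 shared 94% of its windows with other genes, Pramel47 81.1%, Pramel48 74.0%, Pramel51 52.5%, Pramel27 35.2%, Pramel29 21.8% and Oog3 13.6%. Levels of single genes with high shares are uncertain, because the counting could split or move reads among copies. Sums over near copies are given for called members of the pools and, in the single oocytes, for Oog1 and Pramel51. The closest copy of Pramel27 was Pramel22, with 92.5% identity, and a stretch of 120 bases of both reading frames shows how little can separate them. It was the first stretch from base 301 that aligned without gaps, and it is more alike than the whole frames. The capitals mark the 2 positions that differ, and the stretch is bases 301 to 420 of the Pramel27 frame and 208 to 327 of the Pramel22 frame (GENCODE vM21, GRCm38).
Pramel27: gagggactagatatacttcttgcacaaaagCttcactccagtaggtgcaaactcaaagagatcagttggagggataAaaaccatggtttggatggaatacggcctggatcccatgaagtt
Pramel22: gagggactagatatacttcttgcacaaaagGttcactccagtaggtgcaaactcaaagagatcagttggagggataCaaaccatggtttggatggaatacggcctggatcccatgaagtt

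A second set shows genes whose summed reads matter for 2 results below, that of Pramel29 in the pools and that of Oog1 and Pramel51 in the single oocytes. In these 120 bases, chosen in the same way, Oog1 and Pramel51 were identical although they are separate genes. Of the chromosome 4 copies, Pramel25 differed from them at the 4 positions in capitals and Pramel29 at only some of these. The stretch begins at base 301 of the Oog1 and Pramel25 frames and at base 376 of the Pramel51 and Pramel29 frames.
Oog1: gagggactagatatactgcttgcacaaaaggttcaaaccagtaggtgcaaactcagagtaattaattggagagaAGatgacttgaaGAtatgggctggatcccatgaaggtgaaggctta
Pramel51: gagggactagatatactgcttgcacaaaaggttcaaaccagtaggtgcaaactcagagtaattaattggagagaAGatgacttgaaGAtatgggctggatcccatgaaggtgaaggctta
Pramel25: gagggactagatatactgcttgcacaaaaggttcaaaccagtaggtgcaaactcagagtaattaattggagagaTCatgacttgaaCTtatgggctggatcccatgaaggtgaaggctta
Pramel29: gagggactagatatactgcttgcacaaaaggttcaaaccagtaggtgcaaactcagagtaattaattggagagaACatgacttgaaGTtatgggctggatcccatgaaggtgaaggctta

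The pools held between 12142884 and 17475952 gene counts. The 10 oocyte marker genes summed to 21379 and 18311 CPM in siPlat and to 20046 and 21509 CPM in siCtrl, while 10 cumulus and granulosa cell markers, only 2 of them with a row in the table, summed to between 18.4 and 37.5 CPM. Single oocytes held between 2018226 and 9502184 counts in the aged sample and between 5480050 and 11894782 in the young sample. In 21 aged libraries mitochondrially encoded genes took more than 5% of the counts (median 32.8%), against at most 2.97% in the other 38 aged libraries and at most 1.92% in young ones. These 21 libraries stood apart in other ways too, with a median of 9394 genes detected against 16539 in young oocytes and an oocyte marker sum of 1277 CPM at the median, against 18695 CPM in the other aged and 20543 CPM in young libraries. Every result on age is therefore given with and without them.

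The first comparison set the siPlat pools against the siCtrl pools of young MII oocytes, and the cause of the differences was not tested. Most members did not pass the test, but 5 did. The 2 that were higher in siPlat and 1 of the 3 that were lower lie within 1 stretch of chromosome 4, which held 15 of the 22 tested members. Pramel27 and Pramel23 were higher in siPlat, and Pramel48, Pramel47 and Pramel29 were lower. Of the 31 members, 22 passed the filter on low counts and were tested with the quasi-likelihood test of edgeR on the whole table. The 9 that were not tested had at most 22 counts in any pool, at most 1.48 CPM. Of the 22, 2 were higher in siPlat (9.09%), against 2.13% of all 11136 tested genes, and 3 were lower (13.6%), against 1.41% of all tested genes. Either direction took 3.54% of all tested genes. DESeq2 called the same 5 members (3.93% of all tested genes higher and 2.16% lower), and limma-voom called 4 of them, all but Pramel23 (2.35% higher and 1.36% lower). Without siCtrl 1, 2 members were called higher and 1 lower (0.616% and 0.727% of all genes tested in that fit), and without siCtrl 2, 3 higher and 2 lower (0.79% and 0.584%). Without siPlat 1, 2 members were called higher and 4 lower (3.22% and 2.78%), and without siPlat 2, 5 higher and 3 lower (5.44% and 4.22%). The median log2 fold change of the tested members was -0.02, and that of all tested genes was -0.03. In a simulation of this comparison, the test found 111 of 200 genes with a 2-fold change and 193 of 200 with a 4-fold change, so that changes of 2-fold or less are often missed with 2 pools a group. It also made 21 and 20 false calls, a larger share of its calls than the threshold of 0.05 allows. Calls near that threshold are therefore less certain.

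**Figure D1:**
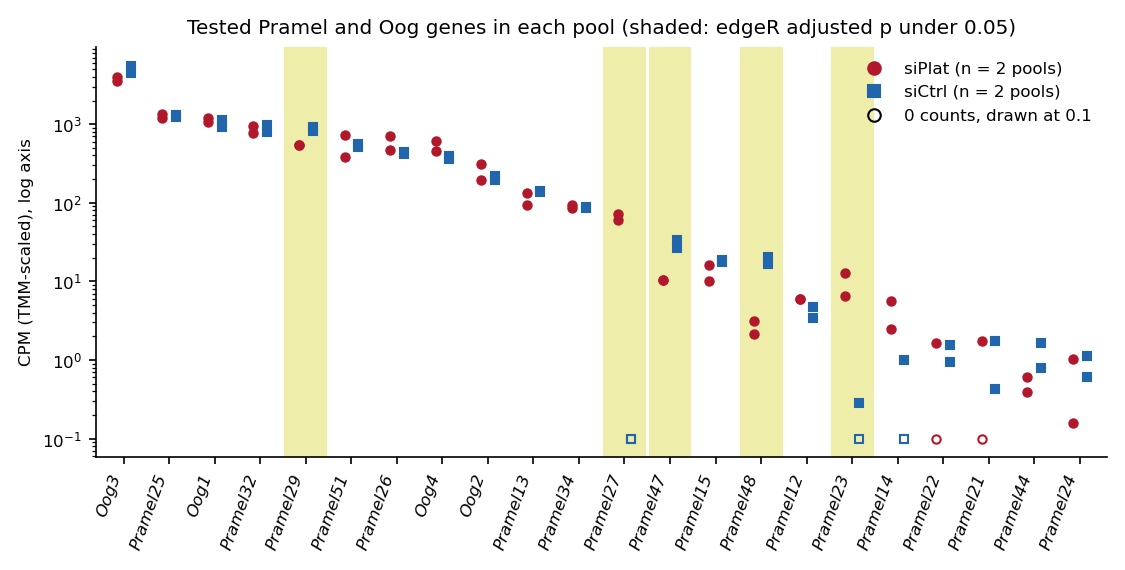
Level of each tested Pramel and Oog gene in CPM (log axis) in each of the 2 siPlat pools (circles) and 2 siCtrl pools (squares), in falling order of level, with 0 counts drawn open at 0.1. The 5 shaded genes passed the edgeR test, and of the tested genes only Pramel27 had 0 counts in both siCtrl pools.

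Pramel27 had 838 and 758 counts in the siPlat pools, against 0 and 0 counts in the siCtrl pools. The levels were 72.2 and 59.5 CPM in siPlat, and both siCtrl pools were empty. With 3 counts over both siCtrl pools as the floor, Pramel27 was at least 699.9-fold higher in siPlat (edgeR adjusted p = 2.27e-06). The gene is protein-coding and lies at chr4:143846497-143853637. Its near copy Pramel22 had 0 and 1.65 CPM in siPlat and 0.95 and 1.55 CPM in siCtrl, and with the reads of both genes summed the log2 fold change was 5.75 (SE 0.30, edgeR adjusted p = 2.99e-06).

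Pramel23, at chr4:143696487-143702711 and with no 75-base window in another gene, had 12.8 and 6.52 CPM in siPlat against 0.28 and 0 CPM in siCtrl. The groups did not overlap, and the log2 fold change was 5.89 (SE 0.76, edgeR adjusted p = 0.0029). Under limma-voom in place of edgeR the call was lost, with an adjusted p of 0.0607. Pramel14, which lies in the same stretch of chromosome 4, had 5.60 and 2.51 CPM in siPlat against 0 and 0.99 CPM in siCtrl and did not pass (3.08, SE 1.14, edgeR adjusted p = 0.189). Without siCtrl 2, which held all its siCtrl counts, Pramel14 passed (edgeR adjusted p = 0.00307).

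Of the called members that were lower in siPlat, Pramel48 had the largest fold change. It had 2.15 and 3.14 CPM in siPlat against 20.3 and 16.5 CPM in siCtrl, 2 groups far apart, with a log2 fold change of -2.79 (SE 0.34, edgeR adjusted p = 0.00169). It lies at chr5:95456806-95485589, and summed with its near copy Pramel42 it was also lower (-2.66, SE 0.35, edgeR adjusted p = 0.00277). Pramel42 had only 0 and 6 counts in siPlat and 0 and 0 in siCtrl, so this sum could only repeat the Pramel48 result. Other genes that share sequence windows with Pramel48, among them Gm3286 and E330014E10Rik, were not in the sum. Whether reads moved between them and Pramel48 was not tested. Pramel47, at chr5:95305923-95343575, had 10.4 and 10.5 CPM in siPlat against 33.8 and 26.6 CPM in siCtrl (-1.53, SE 0.25, edgeR adjusted p = 0.0094). Its open reading frame is 98.7% identical to that of Pramel34, which had 93.9 and 85.0 CPM in siPlat and 87.2 and 85.8 CPM in siCtrl. The sum of Pramel34 and Pramel47 did not pass (-0.22, SE 0.17, edgeR adjusted p = 0.536), and without siCtrl 1 the call for Pramel47 was lost (adjusted p = 0.0761).

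Pramel29 was the abundant member among those called. It had 543 and 538 CPM in siPlat against 822 and 920.03 CPM in siCtrl, with no overlap and a log2 fold change of -0.69 (SE 0.15, edgeR adjusted p = 0.0277). The gene lies at chr4:144206762-144213017. Without siCtrl 1 or siCtrl 2 the call was lost (adjusted p = 0.146 and 0.300). The sum of the copies Oog1, Pramel25, Pramel29 and Pramel51 was 3827 and 3200 CPM in siPlat and 3835 and 3608 CPM in siCtrl and did not pass (-0.08, SE 0.14, edgeR adjusted p = 0.821).

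The tested members of the large chromosome 4 array moved in both directions. Of its 15 tested members 2 were called higher, 1 was called lower and 12 did not pass, and it held no tested gene outside the family. In the chromosome 5 group 2 of 4 tested members were lower. Its 2 tested genes outside the naming rule, Gm6367 and AA792892, share sequence windows with both Pramel47 and Pramel34. Reads could therefore move between them and these members. Gm6367 had 7.58 and 23.4 CPM in siPlat against 70.05 and 58.2 CPM in siCtrl and did not pass (-2.04, SE 0.51, edgeR adjusted p = 0.11). AA792892 had 50.2 and 48.3 CPM in siPlat against 31.3 and 40.7 CPM in siCtrl and did not pass (0.45, SE 0.20, edgeR adjusted p = 0.262). The 2 tested members on chromosome 12 did not pass, nor did their neighbour Gm2042, a copy of Oog1 outside the naming rule, with 1250 and 1162 CPM in siPlat against 1018 and 839 CPM in siCtrl (0.38, SE 0.15, edgeR adjusted p = 0.204). Pramel32 had 943 and 777 CPM in siPlat and 967 and 803 CPM in siCtrl (-0.04, SE 0.16, edgeR adjusted p = 0.934).

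**Figure D2:**
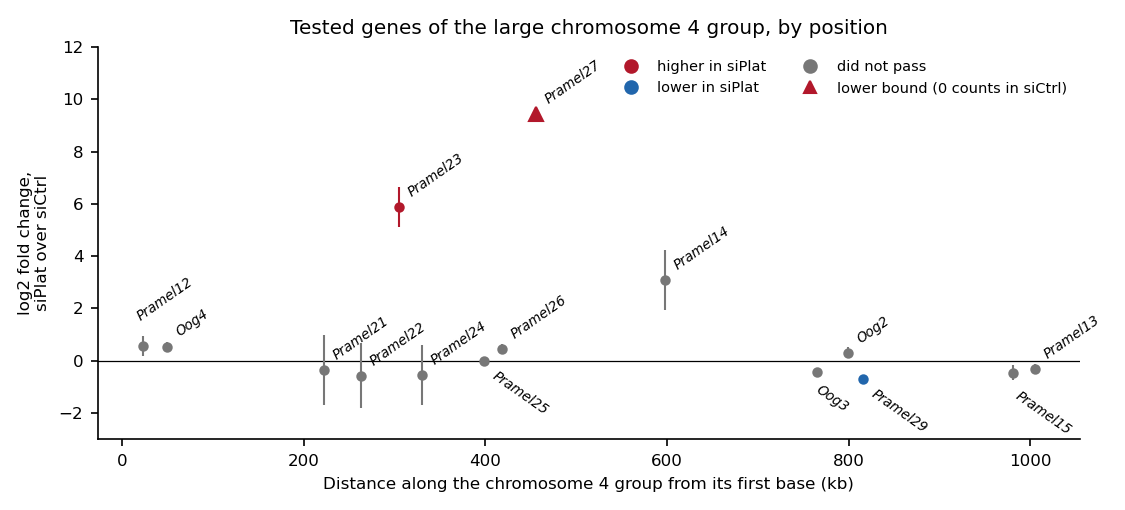
Log2 fold change of siPlat over siCtrl for the 15 tested members of the large chromosome 4 array, against distance in kb from the first base of the array, with bars of 1 SE and, for Pramel27, the lower bound as a triangle. Pramel23 and Pramel27 stand at 5.89 and above, and Pramel29 at -0.69 is the only called member below 0.

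The promoters of 4 called genes are shown so that members higher and members lower in siPlat can be read beside each other. RefSeq promoters (GRCm38.p6) hold 250 bases before and 50 bases after the start and were at hand for 32 genes of the family, Pramel47 not among them. Capitals mark an E-box (CANNTG), the homeodomain motif TAATTG or its reverse CAATTA, and a TATA box (TATAAA), searched on both strands. E-boxes are bound by the oocyte factor Figla with its partners and TAATTG by the oocyte factor Nobox. The stretches are chr4:143846247-143846546 on the plus strand for Pramel27, chr4:143702662-143702961 on the minus strand for Pramel23, chr4:144212968-144213267 on the minus strand for Pramel29 and chr5:95456556-95456855 on the plus strand for Pramel48.
Pramel27: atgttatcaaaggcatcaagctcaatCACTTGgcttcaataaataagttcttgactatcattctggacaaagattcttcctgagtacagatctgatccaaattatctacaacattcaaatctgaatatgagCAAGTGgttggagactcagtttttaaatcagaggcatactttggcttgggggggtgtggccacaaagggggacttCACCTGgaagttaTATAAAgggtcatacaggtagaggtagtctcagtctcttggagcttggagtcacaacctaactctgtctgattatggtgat
Pramel23: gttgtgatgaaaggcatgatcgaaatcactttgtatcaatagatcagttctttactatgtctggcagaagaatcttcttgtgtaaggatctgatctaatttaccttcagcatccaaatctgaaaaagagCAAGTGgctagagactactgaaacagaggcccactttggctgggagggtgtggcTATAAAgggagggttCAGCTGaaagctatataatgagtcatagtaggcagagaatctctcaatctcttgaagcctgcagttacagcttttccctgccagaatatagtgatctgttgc
Pramel29: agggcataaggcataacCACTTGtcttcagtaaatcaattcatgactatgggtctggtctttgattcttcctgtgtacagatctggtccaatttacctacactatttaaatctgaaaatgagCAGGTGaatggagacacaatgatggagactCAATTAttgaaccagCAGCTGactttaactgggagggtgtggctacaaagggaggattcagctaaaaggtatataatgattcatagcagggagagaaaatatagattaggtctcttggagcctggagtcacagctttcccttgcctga
Pramel48: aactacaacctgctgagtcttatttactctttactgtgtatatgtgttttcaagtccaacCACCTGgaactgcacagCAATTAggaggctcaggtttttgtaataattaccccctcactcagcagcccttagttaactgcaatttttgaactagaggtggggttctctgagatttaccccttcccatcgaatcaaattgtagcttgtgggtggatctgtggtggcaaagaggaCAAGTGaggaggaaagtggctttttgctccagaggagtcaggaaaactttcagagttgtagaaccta

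Among the 4 printed promoters, TATAAA stood in those of Pramel27 and Pramel23 and TAATTG in those of Pramel29 and Pramel48. Among members that were tested and did not pass, Oog3 (log2 fold change below 0) and Pramel26 (above 0) held both motifs. Oog4 (above 0) held TAATTG alone of the pair. Oog2 (above 0) held TATAAA, and Pramel13 and Pramel21 (below 0) and Pramel25 and Pramel32 (near 0) held TAATTG. Matches were to exact letters only, and the promoters of Pramel23 and Pramel29 both hold the similar run tatataatg. In Pramel23 that run lies nearer the start than its TATAAA match. A link between motif and direction was not tested. Over the family TAATTG stood in 10 of 32 promoters (31.25%), against 8.0% of all 32851 promoters in the table. E-boxes stood in 30 of 32 (93.8%), against 72.3% of all, TATAAA in 8 of 32 (25%), against 13.6%, and CCAAT, the NF-Y motif, in 16 of 32 (50%), against 37.4%. Pairs of family promoters shared up to 98% of their bases, as between Pramel39 and Pramel50, so the promoters are not independent of each other, and a match is a run of letters and not a measured site.

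Among the abundant members none other than Pramel29 passed. Oog3, the most abundant, had 3983 and 3494 CPM in siPlat against 5559 and 4448 CPM in siCtrl. The groups did not overlap, and the fit gave -0.42 (SE 0.15, edgeR adjusted p = 0.158). Oog4 had 619 and 461 CPM in siPlat against 357 and 389.5 CPM in siCtrl (0.53, SE 0.17, edgeR adjusted p = 0.124), and Pramel26 had 710.2 and 473 CPM against 439 and 421 CPM (0.46, SE 0.19, edgeR adjusted p = 0.223). Both stood higher in each siPlat pool without passing. Oog1 had 1205 and 1068 CPM in siPlat against 1126 and 928 CPM in siCtrl (0.15), Oog2 had 313 and 197 CPM against 219.9 and 195 CPM (0.30), and Pramel51 had 724 and 388 CPM against 563 and 515 CPM (0.05). Their groups overlapped, and so did those of Pramel25, with 1354 and 1206 CPM in siPlat and 1325 and 1245 CPM in siCtrl (-0.01). Pramel13, formerly Pramef12 and needed for spermatogenesis in mice, had 132 and 94.2 CPM in siPlat against 139 and 141 CPM in siCtrl (-0.31, edgeR adjusted p = 0.441). Pramel15, reported to promote the loss of Dnmt1 in mouse zygotes, had 10.3 and 16.0 CPM in siPlat against 18.5 and 17.7 CPM in siCtrl (-0.46, edgeR adjusted p = 0.43).

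In all, 13 of the 22 tested members had groups that did not overlap, 6 with siPlat higher and 7 with siPlat lower, against 23.5% and 25.8% of all tested genes. At an unadjusted p under 0.05 stood 9 of 22 members, against 2096 of 11136 genes. The family sum over all 31 members was 10746 and 8888 CPM in siPlat and 11686 and 10166 CPM in siCtrl, or 9817 ± 1313 and 10926 ± 1075 CPM (SD, n = 2 each), and the groups overlapped. Its log2 ratio was -0.15, and without Oog3 it was 0.04. In a pool, fewer oocytes that carry a transcript and less of it in each oocyte cannot be told apart.

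Per kilobase of exon, the order of levels in the siCtrl pools ran from Oog3 at 2683 CPM per kilobase through Pramel25 at 709.97, Oog1 at 419, Pramel32 at 408, Pramel29 at 292, Pramel26 at 203, Oog4 at 188 and Pramel51 at 181 to Oog2 at 83.6. Oog1 and Pramel32 did not differ beyond their spread over the 2 pools, and neither did Oog4 and Pramel51. Oog3 led in siPlat too, at 2004 CPM per kilobase, with Pramel25 next at 707.

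A list of 12 genes held parts and regulators of cullin ligases, among them Cul2, Cul5, Rnf7 and Vhl. It also held Uhrf1 and Dnmt1, reported targets of PRAME family proteins. Of the 11 tested, 0 were called by edgeR, DESeq2 or limma-voom, against 3.54% of all tested genes with edgeR, and an unadjusted p under 0.05 was reached by 3 of them in edgeR, 2 in DESeq2 and 3 in limma-voom, against 2096, 1853 and 2123 of all 11136 tested genes. Without siPlat 2, 2 of the 11, Eloc and Rbx1, were called higher, against 5.44% of all genes in that fit. Cul2, the scaffold of the cullin 2 ligase, had 42.7 and 47.5 CPM in siPlat against 42.1 and 35.1 CPM in siCtrl (0.22, SE 0.20, edgeR adjusted p = 0.606). Rbx1, its RING subunit, had 1293 and 954 CPM in siPlat against 853 and 772 CPM in siCtrl, with no overlap (0.47, SE 0.17, edgeR adjusted p = 0.164). Uhrf1 had 141 and 167 CPM in siPlat against 174 and 183 CPM in siCtrl (-0.21, SE 0.17, edgeR adjusted p = 0.551), and Dnmt1 had 1099.7 and 1217 CPM against 1416 and 1482 CPM (-0.32, SE 0.14, edgeR adjusted p = 0.243).

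The second comparison set single oocytes from aged mice against those from young mice. With 1 sample an age there was no test, and the values describe these oocytes. Of 40 rows, 18 reached 5 CPM in the mean of both ages, and 6 rows had 0 counts in all 94 oocytes. These were Prame, Pramel3, Pramel6, Pramel7, Pramel50 and the antisense transcript Pramef12os, and 0 counts in a row allow a level of up to 0.00841 CPM in the aged and 0.00989 CPM in the young sample. That limit covers reads counted for the row itself, and Pramel50 and Pramel3 share 100% and 70.4% of their windows with other genes, so that it does not limit their level. Of the 18, 4 were more than 1.5-fold higher in aged oocytes in summed CPM (22.2%), against 9.45% of all 8303 genes, and 0 were more than 1.5-fold lower, against 9.38% of all genes. The 4 were Pramel51, Oog1, Pramel23 and Oog2, and the reading frames of Pramel51 and Oog1 are 94.2% identical. Scaled to spike-in RNAs in place of CPM, 0 of 18 were higher, against 0.377% of 7436 genes, and 16 were lower, against 95.8%, near the share of all genes. Without the 21 aged libraries of high mitochondrial share, 1 of 18 was higher (5.56%), against 8.87% of 8413 genes, and 0 were lower, against 1.87%. The median log2 ratio of the members was -0.06 with all libraries, beside -0.07 for all genes, and 0.12 without the 21, beside 0.08 for all genes.

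The 2 highest ratios belonged to the chromosome 12 genes Pramel51 and Oog1. Pramel51 ran between 319 and 8362 CPM (median 2289) in the 21 aged oocytes of high mitochondrial share, between 298 and 541 CPM (median 414) in the other 38 aged oocytes, and between 298 and 530.03 CPM (median 402) in young oocytes. The other aged oocytes and the young oocytes covered nearly the same span, while most of the 21 lay far above it. The log2 ratio of aged over young was 1.37 over all libraries, with summed levels of 1012 CPM (95% Poisson interval 1009 to 1015) in aged and 392 CPM (389.6 to 394) in young, intervals that cover counting error only, 0.07 without the 21 libraries, 2.75 in the 21 alone, and -0.11 over all libraries when scaled to spike-in RNAs.

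Oog1 followed the same pattern at a lower level. It ran between 53.1 and 1489 CPM (median 376) in the 21, between 69.1 and 127 CPM (median 99.0) in the other aged oocytes and between 61.0 and 134 CPM (median 84.5) in young oocytes, and its log2 ratio was 1.24 over all libraries, 0.19 without the 21 and 2.50 in the 21 alone. Gm2042, its copy outside the rule, had medians of 506, 151 and 132 CPM in the 3 sets of oocytes in the same order. Pramel25, the chromosome 4 copy, had medians of 923, 584 and 582 CPM. Summed over the copies Oog1, Pramel25, Pramel29 and Pramel51, aged oocytes had 2106 CPM and young ones 1183 CPM. The log2 ratio of that sum was 0.83 over all libraries, 0.07 without the 21 and 1.91 in the 21 alone. Oocyte markers were lowest and mitochondrial shares highest in the same 21 libraries, and their part in these levels was not tested.

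In those 21 oocytes 6 of the 18 were more than 1.5-fold above young, against 15.4% of all 8303 genes, and 10 of the 18 were more than 1.5-fold below, against 58.9% of all genes, so that the share of members below was close to that of genes at large. The 6 were Pramel51, Oog1, Oog2, Pramel25, Pramel29 and Pramel23. Among them Oog1, Pramel25, Pramel29 and Pramel51 are 4 copies at least 90% identical, so the 6 are not separate observations. Oog3 ran between 66.1 and 1974 CPM (median 732) in the 21, between 1539.9 and 4044 CPM (median 2373) in the other aged oocytes and between 1850.05 and 6453 CPM (median 2496) in young oocytes. The 21 thus reached only into the low end of the young range, and the other 38 lay largely inside it. The log2 ratio of Oog3 was -0.44 over all libraries and -0.15 without the 21. Oog4 ran between 0.273 and 92.6 CPM (median 25.2) in the 21, between 113 and 381 CPM (median 195) in the other aged and between 148 and 329 CPM (median 213) in young oocytes, so that none of the 21 reached the lowest young oocyte. Its log2 ratio was -0.42 over all libraries, -0.04 without the 21 and -2.76 in the 21 alone. Pramel32 had medians of 245, 864 and 895 CPM, and Pramel13 of 7.37, 91.9 and 93.997 CPM, in the same order of sets.

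**Figure D3:**
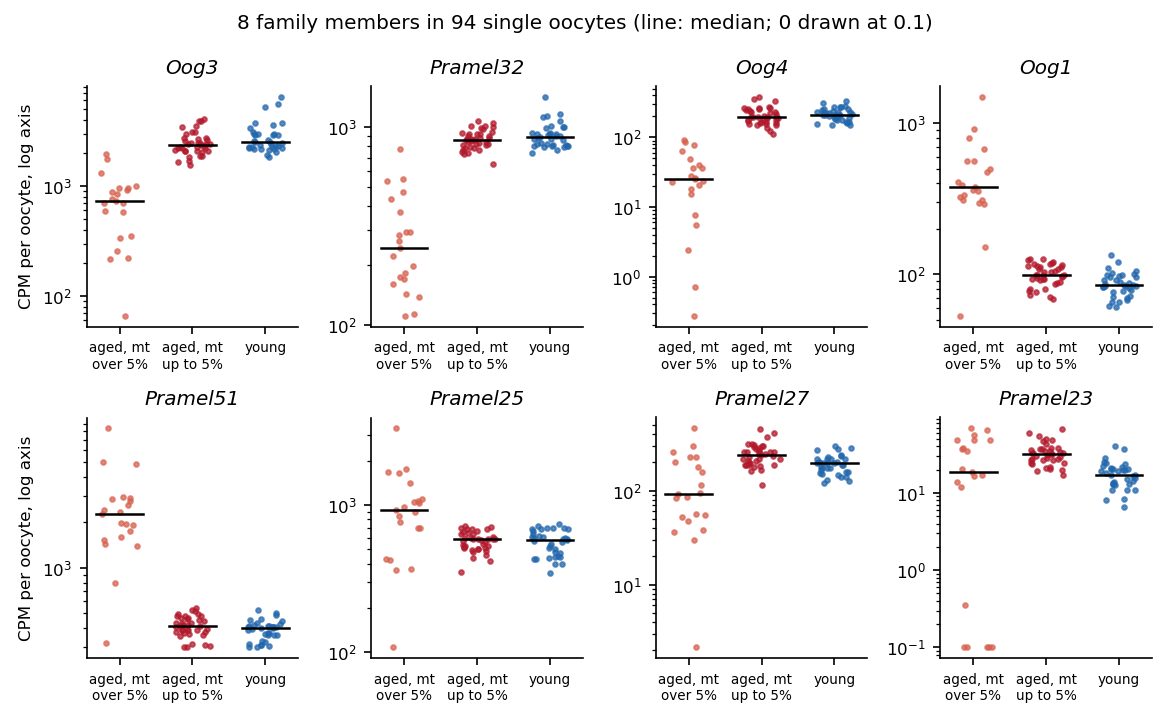
CPM per oocyte (log axis) of 8 family members in the 21 aged oocytes with a mitochondrial share over 5%, the other 38 aged oocytes and the 35 young oocytes, with a line at the median and 0 drawn at 0.1. Oog1 and Pramel51 are highest in the 21, Oog3, Pramel32 and Oog4 are lowest there, and the other aged oocytes overlap the young ones in all 8 panels.

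Pramel23 was the member that stayed past 1.5-fold without the 21 libraries. It ran between 0 and 68.5 CPM (median 18.6) in the 21, between 16.9 and 66.7 CPM (median 31.8) in the other aged oocytes and between 6.63 and 40.2 CPM (median 17.2) in young oocytes. Its log2 ratio was 0.80 over all libraries, 0.86 without the 21 and 0.62 in the 21 alone. Of the 21 oocytes 10 lay below the young median, 5 of them at 0, against 1 of the other 38. Scaled to spike-in RNAs the log2 ratio of Pramel23 was at -0.60 over all libraries and at 0.06 without the 21. Oog2 had medians of 141, 119 and 88.9 CPM and log2 ratios of 0.62 over all libraries and 0.45 without the 21. Pramel27 had medians of 91.3, 241 and 196 CPM, with ratios of 0.20 and 0.39.

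Pramel12 was the lowest of the 18 in its ratio. Its medians were 12.7, 38.5 and 56.4 CPM, and its log2 ratio was -0.55 over all libraries and -0.39 without the 21. Pramel48, which was lower in siPlat, had medians of 2.82, 32.2 and 28.5 CPM. Its log2 ratios were -0.12 over all libraries and 0.26 without the 21. Pramel29 had medians of 145, 145 and 129 CPM, with ratios of 0.37 over all libraries and 0.17 without the 21. Of the genes tied to PRAME proteins, Uhrf1 had 402 CPM in the aged sample and 645 CPM in the young sample (-0.68 over all libraries, -0.27 without the 21), and Dnmt1 had 627 CPM in the aged sample and 527 CPM in the young sample (0.25 and 0.66).

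**Figure D4:**
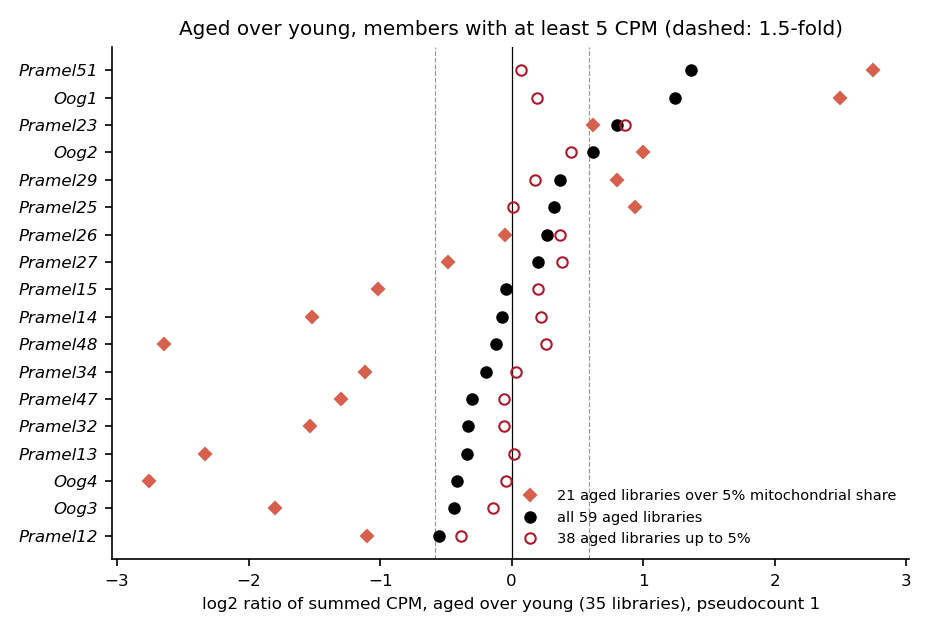
Log2 ratio of summed CPM in aged over young oocytes (pseudocount 1 CPM) for the 18 members with at least 5 CPM, from all 59 aged libraries (black), the 38 of low mitochondrial share (open) and the 21 of high share (diamonds), with dashed lines at 1.5-fold. Pramel51 lies at 2.75 in the 21 libraries and at 0.07 in the 38, while Pramel23 lies between 0.62 and 0.86 in the 3 sets, though below 0 over all libraries when scaled to spike-in RNAs.

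These ratios are relative to all transcripts of an oocyte. Scaled to the ERCC spike-in RNAs instead, the median log2 ratio of all 8303 genes was -1.43, and Pramel51 stood at -0.11, Oog1 at -0.23, Pramel23 at -0.60 and Oog2 at -0.84, below young rather than above. Relative to that median, Pramel51 was 1.32 higher and Pramel23 0.83 higher, beside 1.44 and 0.87 relative to the median of all genes under CPM. Without the 21 libraries the median of all genes was -0.71 when scaled to spike-ins, and Pramel51 lay -0.05 from it while Pramel23 lay 0.77 above it, beside -0.0045 and 0.79 under CPM. Spike-in counts were 6.16% of all counts at the median in the 21 libraries, 3.28% in the other aged and 1.55% in young libraries.

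The family sum showed little of these opposite movements. Over the 40 rows aged oocytes had 6229 CPM and young ones 6203 CPM (log2 ratio 0.01, and -0.01 without the 21 libraries). Over the 18 rows that carry a family symbol aged oocytes had 2724 CPM and young ones 3377 CPM (-0.31, and -0.10 without the 21). The chromosome 12 pair summed to 1217 CPM in the aged sample and 478 CPM in the young sample (1.35, and 0.10 without the 21). The large chromosome 4 array summed to 4024 CPM in the aged sample and 4509 CPM in the young sample (-0.16, and -0.02 without the 21). Oog3 made up 12.3% of the family reads in the 21 libraries, 40.7% in the other aged and 44.7% in young oocytes, and Pramel51 made up 41.0%, 6.70% and 6.32%.

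**Figure D5:**
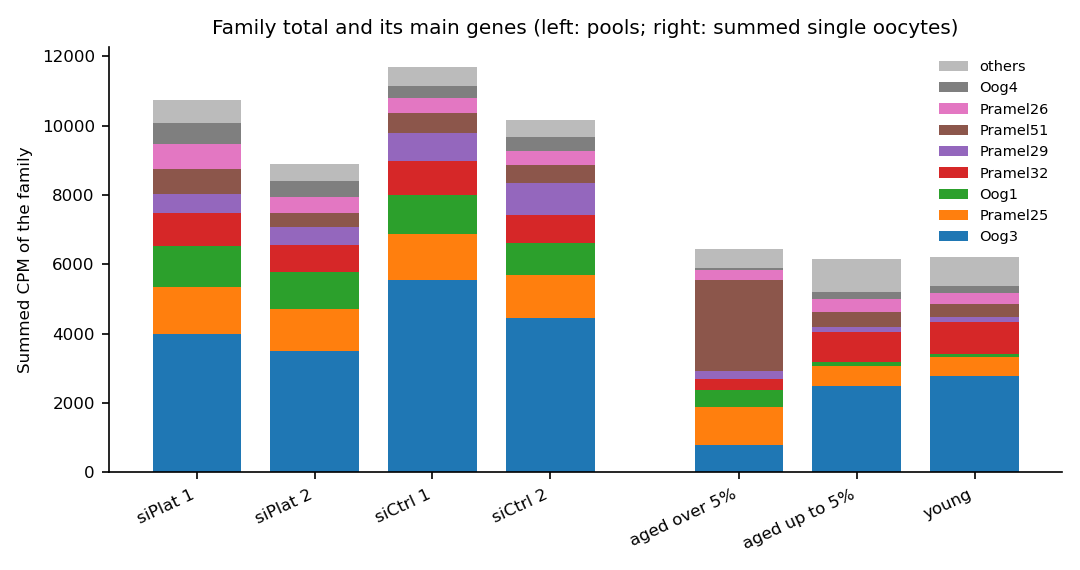
Summed CPM of the family in each pool (left) and in 3 sets of single oocytes (right), stacked by its 8 most abundant genes of the pools and all others. Oog3 is the largest block in the pools, in aged oocytes of low mitochondrial share and in young oocytes, and Pramel51 is the largest in the 21 aged oocytes of high share.

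The pools set beside the young single oocytes differed in family make-up, although all are young MII oocytes. The tables were normalised separately and their counting may differ, so the values stand side by side with no test. Pramel27 was at 0 counts in both siCtrl pools, yet all 35 young single oocytes had counts for it, between 121 and 301 CPM, above the 72.2 and 59.5 CPM of the siPlat pools. Pramel23 was at 0.28 and 0 CPM in siCtrl, below the young single oocytes at 6.63 to 40.2 CPM, and the siPlat pools at 12.8 and 6.52 CPM lay at the low end of that range. Pramel48 was at 2.15 and 3.14 CPM in siPlat, below the young range of 14.0 to 50.04 CPM, which held both siCtrl pools. Of the 22 tested members, all 4 pools lay above the young single oocytes for 7 and below them for 4, against 18.5% of 10820 tested genes with the same symbol in both tables above and 18.5% below. Oog1 was among the 7, with 928 to 1205 CPM in pools against at most 134 CPM in a young oocyte, and the ratio of Pramel51 to Oog1 was 0.36 to 0.60 in siPlat and 0.50 to 0.56 in siCtrl pools but 3.43 to 5.92 in young oocytes. Pramel12 was among the 4, with 3.47 to 6.03 CPM in pools against at least 31.9 CPM in a young oocyte, and it shares no 75-base window with another gene.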

How the data were processed

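Whole-number counts of reads per gene were deposited by the authors in 2 tables, 1 of the 4 pools and 1 of the 94 single oocytes, without normalisation. The tools STAR 2.7.10b and HTSeq 0.13.5 and the build mm10 come, without roles, from the submitters' processing notes; the annotation and whether strand was used in counting are not given in the sources used here. The members, gene lists and tests were chosen with earlier results of these data known. The genes named in the text are members called by edgeR, the 10 most abundant members of each table, the 5 highest and lowest aged over young ratios with and without the libraries of high mitochondrial share, and members at 0 in 1 group of pools; the remaining names were added as copies, neighbours or background of these after their values were seen.

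Pools were tested with edgeR 4.0.16 in R 4.3.3 (TMM factors, expression filter with a count minimum of 10 and a total of at least 15, robust quasi-likelihood fit, Benjamini-Hochberg adjustment over all tested genes, called at adjusted p under 0.05), with no covariate. The SE is the absolute log2 fold change divided by the square root of F. Pool CPM are TMM-scaled and are relative levels. Beyond counting error, replicate pools differed with a chi-square of 28.5 per degree of freedom in siPlat and 18 in siCtrl. Alternatives were DESeq2 1.42.0, limma-voom (limma 3.58.1), other size factors, no filter, a replicate block, leaving out each pool, and summing members whose open reading frames are at least 90% identical (edlib 1.3.9.post1); the last was chosen after seeing the data.

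Single oocytes were summed by age and given as CPM of gene totals without ERCC entries, with exact Poisson intervals at 95% confidence and log2 ratios with a pseudocount of 1 CPM; reads without molecular identifiers are not independent, so intervals and limits cover counting error only. Of the single-oocyte columns, 1 that was unnamed and empty was not used. The test was checked on simulated counts with 200 changed genes, among 10781 genes at 2-fold (21 false calls) and among 10787 genes at 4-fold (20 false calls). Symbols were matched through RefSeq synonyms, and 39 of the 40 matched genes were checked by position in GENCODE vM21 (GRCm38). Open reading frames are the longest from start to stop codon in a GENCODE transcript, and promoters are from RefSeq (GRCm38.p6).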

Additional observations from a re-analysis of the deposited data

How the results depend on the processing

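Over all genes, DESeq2 called 678, the replicate block 273 and leaving out 1 pool between 157 and 1145, against 394 with edgeR; where 1 pool was left alone in its group, it was assumed to vary like the other group. Members called higher numbered 1 under limma-voom and 2 to 5 when 1 pool was left out, 5 of them without siPlat 2, where Oog2, Oog4 and Pramel26 also passed. Members called lower numbered 1 with near-identical copies summed and 1 to 4 when 1 pool was left out, 1 of them without siCtrl 1. Pramel27 and Pramel48 passed in all 9 alternatives in which they were tested as single genes. The labels' replicate numbers did not pair the pools (correlation of same-numbered deviations -0.0983). With the replicate block the same 2 members were higher and the same 3 lower, against 158 and 115 of 11136 genes. The family sum of siPlat over siCtrl ran between -0.30 and 0.04 on the log2 scale over its alternatives. The planned summing of members by protein identity was not run.

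In the single oocytes, the log2 ratio of the family sum over the rows with a family symbol was -0.31; it was -0.10 without the libraries over 5%, -0.19 without mitochondrially encoded genes, -0.44 from means and -0.20 from medians over oocytes, -1.79 scaled to ERCC counts and -0.94 scaled so without those libraries, 0.16 without Oog3, and 0.00601 with rows under older symbols (-0.011 without those libraries). Of the 8 such members at 5 CPM, 2 were past 1.5-fold higher and 0 lower; 0 were higher without the libraries over 5%, under either ERCC scaling or from medians, and 7 and 6 were lower under the ERCC scalings with and without those libraries, 2 from means and 1 from medians. With older-symbol rows 1 was higher without those libraries, 1 from medians and 0 under either ERCC scaling. Lower were 16 and 12 under the ERCC scalings, 2 from means and 1 from medians. Of all genes, 9.45% were higher and 9.38% lower under CPM, and 8.87% and 1.87% without the libraries over 5%. Scaled to ERCC counts with all libraries, 0.377% were higher and 95.8% lower. Shares of all genes under the other settings were not computed, so the member counts there have no base beside them. Scaled to ERCC counts, Pramel23 (-0.60), Oog2 (-0.84), Oog1 (-0.23) and Pramel51 (-0.11) were below young, as were Oog2 (-0.38), Oog1 (-0.63) and Pramel51 (-0.76) without those libraries; under that scaling the median of all genes was -1.43 with those libraries and -0.71 without them.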
